A study of Mus musculus with 15 samples.

Results

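The 40 DNA repair genes described here were taken from the array's own gene names: a probe belonged to the set if it was not a control and its gene name was one of the 40 symbols. They were measured by 52 of the 55681 probes, and the array named 24336 genes in all. Each of 31 genes had 1 probe and 9 had several. A gene was represented by its brightest probe, and a dimmer probe is named where its call or sign was another. Total RNA of whole mouse liver tumors was labelled with 1 dye and hybridised to Agilent arrays, 1 tumor per array. The p53f/f mice gave 5 hepatocellular carcinomas (HCC), and the p53LKO mice gave 5 HCC and 5 tumors labelled ICC, the usual abbreviation of intrahepatic cholangiocarcinoma. p53f/f mice carry floxed Trp53 alleles and served as controls, and in p53LKO mice Trp53 is deleted in the liver. All mice were on the C57/BL6J background and all received carbon tetrachloride by intraperitoneal injection for 16 weeks, starting at 6 weeks of age, in doses of 0.5 ml/kg, 2 times a week per the methods and every 3 days per the labels, so no tumor here came from an untreated mouse. The study describes its transcriptome as that of male mice. Animals were killed at ages of 24 or 36 weeks, with p53f/f controls also followed for longer. Per the study, few p53f/f mice had a tumor by 36 weeks and more had one on longer follow-up. The age of each mouse behind these tumors and the Cre line are not given in the sources used here. The p53f/f HCC may thus come from older mice than the p53LKO tumors, and age and genotype cannot be told apart. The 5 p53f/f HCC came from 4 mice, since mouse 3717 gave T1 and T2, and 4 mice gave both an HCC and an ICC.

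DNA repair is divided by the kind of damage. Homologous recombination copies an intact sister strand to mend a double-strand break and acts mostly while DNA is replicated, with Brca1, Brca2 and Bard1 at its core, and the Fanconi anemia proteins clear links between strands in the same phase. Non-homologous end joining seals breaks without a template, starting with the Ku dimer made of Xrcc5 (Ku80) and Xrcc6 (Ku70). Mismatch, base excision and nucleotide excision repair each remove damage from 1 strand. Breaks and stalled forks are sensed by the Mre11a, Rad50 and Nbn complex and signalled by the kinases Atm, Atr, Chek1 and Chek2, which act upstream of p53. In liver, CCl4 injures hepatocytes and sets off regrowth, so tumors of this model arise from tissue with repeated rounds of damage and division.

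The values are levels on the log2 scale, 0 being the 75th percentile of all non-control probes of that array. A level of one gene was not set against that of another, because probes differ in brightness. The scanner software called 37.0% to 70.1% of the probes of an array well above background, the usual mark of a measured signal. The p53f/f HCC and 3 of the p53LKO HCC sat in the upper row of a slide, with 55.1% to 70.1% of probes well above background. The other 2 p53LKO HCC (mouse 3976 T1 and mouse 5283 T7) and all ICC lay in lower rows, with 37.0% to 47.0%. The probe for Trp53 read -1.27 to -0.68 in p53f/f HCC, -3.86 to -2.75 in p53LKO HCC and -4.19 to -2.31 in ICC, which follows the labels without overlap, although its listed position is not at the Trp53 locus. Of the marker genes of liver cells, the 8 for hepatocytes averaged 6.20 to 7.39 on the HCC arrays and 3.45 to 5.79 on the ICC arrays. The 7 biliary markers averaged -2.54 to 0.26 in HCC and 1.16 to 1.46 in ICC. The hepatocyte markers were well above background on all arrays, ICC included. In RNA of whole tumors, fewer cells of a type and less RNA per cell cannot be told apart.

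A gene was tested if at least 3 arrays of 1 of the groups compared measured its probe well above background, and called if limma's adjusted p was under 0.05 and the fold change over 2. In each of the 3 comparisons, 38 of the 40 genes were tested. Brca1 was not well above background on any of the 15 arrays, and Fancd2 was so on 1 array, the p53f/f HCC of mouse 3716. Both were therefore left untested, and their levels of -7.01 to -3.01 and -6.90 to -3.99 say only that these probes read little. The other members that were dim in a whole group were Xrcc2, Xrcc3 and Chek1, none of them well above background on any ICC array. Among all 40 members the number well above background was 37 or 38 on the p53f/f HCC arrays, 33 to 38 on the p53LKO HCC arrays and 33 or 34 on the ICC arrays.

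The sequences before the transcription starts of Fanca, Rad54l, Rad51ap1, Xrcc5 and Chek1 are shown because these genes were called in a comparison below. They are the 250 bases upstream of the first listed start in RefSeq, build GRCm38.p6, which held 32 of the 40 members. Exo1, Rad54b, Fancd2, Nbn, Rad50, Xrcc2, Ercc3 and Prkdc had no entry. Capitals mark matches, on either strand, to CCAAT (the NF-Y box, read as ATTGG on the other strand), GGCGGGAA (an E2F-type site), TTTGAA (the cell cycle homology region) or the p53 half-site.
Fanca (chr8:123318577-123318826, minus strand): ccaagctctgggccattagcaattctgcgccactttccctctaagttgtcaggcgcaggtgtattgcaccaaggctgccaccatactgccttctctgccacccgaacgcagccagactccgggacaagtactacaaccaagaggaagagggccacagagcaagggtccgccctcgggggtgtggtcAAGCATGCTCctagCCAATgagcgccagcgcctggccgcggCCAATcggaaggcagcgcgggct
Rad54l (chr4:116123691-116123940, minus strand): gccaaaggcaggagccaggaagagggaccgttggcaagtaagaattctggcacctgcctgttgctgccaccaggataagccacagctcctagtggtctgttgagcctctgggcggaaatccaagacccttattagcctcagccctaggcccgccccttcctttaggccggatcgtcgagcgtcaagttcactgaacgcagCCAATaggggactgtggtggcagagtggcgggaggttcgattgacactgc
Rad51ap1 (chr6:126939588-126939837, minus strand): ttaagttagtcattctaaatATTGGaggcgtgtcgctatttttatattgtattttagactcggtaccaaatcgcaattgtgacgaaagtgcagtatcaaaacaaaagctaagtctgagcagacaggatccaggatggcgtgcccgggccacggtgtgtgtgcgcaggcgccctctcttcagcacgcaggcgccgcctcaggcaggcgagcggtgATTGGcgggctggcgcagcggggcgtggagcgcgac
Xrcc5 (chr1:72307171-72307420, plus strand): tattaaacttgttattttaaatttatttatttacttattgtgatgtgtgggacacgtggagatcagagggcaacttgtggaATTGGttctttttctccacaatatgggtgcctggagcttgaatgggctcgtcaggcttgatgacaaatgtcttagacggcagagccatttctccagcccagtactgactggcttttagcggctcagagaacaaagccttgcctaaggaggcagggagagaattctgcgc
Chek1 (chr9:36726659-36726908, minus strand): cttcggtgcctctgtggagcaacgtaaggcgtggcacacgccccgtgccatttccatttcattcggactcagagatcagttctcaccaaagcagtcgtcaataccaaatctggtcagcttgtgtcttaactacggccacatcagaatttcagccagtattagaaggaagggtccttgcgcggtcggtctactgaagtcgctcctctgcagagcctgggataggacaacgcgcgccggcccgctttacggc
Fanca holds CCAAT at 2 places and, beside them, AAGCATGCTC, a match to the p53 half-site 64 to 55 bases before the start. Rad51ap1 holds CCAAT at 2 places, Rad54l and Xrcc5 at 1, and Chek1 holds none of the 4 motifs. Over the members the shares were 53.1% for CCAAT (17 of 32), and 3.12% each for GGCGGGAA, TTTGAA and the p53 half-site, held by Fancb, Bard1 and Fanca. Over the same window of all 27025 genes in the table the shares were 34.5%, 1.88%, 16.3% and 7.18%. The motifs did not overlap in the sequences shown, and a match is a run of letters, not a shown binding site.

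**Figure D1:**
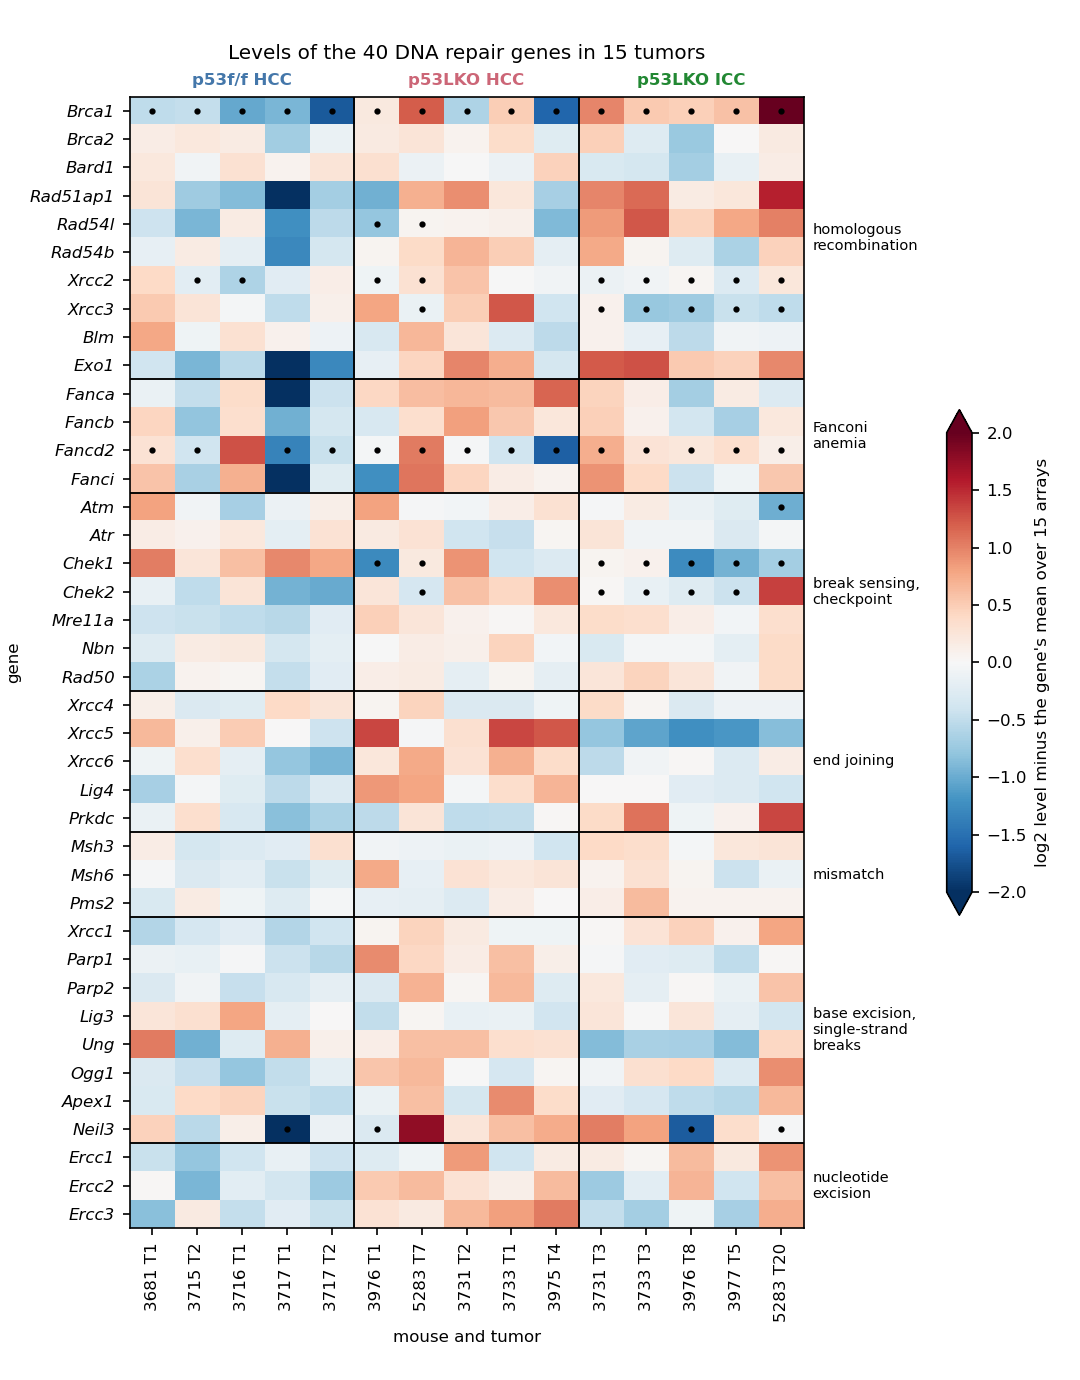
Level of each of the 40 genes (rows, by repair pathway) in each of 15 tumors (columns, by mouse and tumor), drawn as the log2 level minus the gene's mean over the 15 arrays. Dots mark probes not well above background. The p53f/f HCC of mouse 3717 T1 holds the lowest value of several genes, Exo1, Fanca, Rad51ap1, Fanci and Neil3 among them, and Xrcc5 is lowest in the 5 ICC.

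The first comparison asked how HCC with and without hepatic p53 differed. The median log2 fold change of the 38 tested genes was 0.45, with 31 above 0 and 7 below, against a median of 0.06 over all 17848 genes tested. The split was 24 and 14 with the 75th percentile of probes above background on all arrays as the reference, and 37 and 1 with the spike-in probes. The called genes were Exo1 and Fanca, both higher in p53LKO HCC, and no member was called lower. At an unadjusted p under 0.05 by limma, 2 members were lower, Chek1 and Lig3. Higher at that threshold were Rad54b, Chek2 and Msh6, beside the members that passed the adjusted p. The share of all genes at the unadjusted threshold was not counted. Of all genes, 5.19% were called higher and 10.8% lower. At an adjusted p under 0.05 without the fold threshold, 10 members were higher and 0 lower, where 13.8% of all genes were higher and 15.7% lower. The 10 fell to 4 without the p53f/f HCC of mouse 3717 T2, to 6 without 3717 T1 or the p53LKO HCC of mouse 3731, to 4 in the upper rows alone or without the filter on dim probes, and to 6 with the row as a block. With the spike-in reference 32 were higher and 0 lower, and with the 75th percentile of the probes that all 10 arrays measured above background 4 were higher and 2 lower. With the fold threshold, 6224 and 432 of the 17848 genes were called higher with these references, and 786 and 2758 lower. The mean level of the 40 genes on an array was -1.26 to -0.54 in p53f/f HCC and -0.54 to -0.19 in p53LKO HCC. The list's median minus that of all genes was 0.38 here and 0.21 to 0.47 under the other scalings. Taking the probes for spiked-in RNA as the reference moved the median of all genes by 0.74 and the list's median to 1.18, while the probes that all 10 arrays measured above background moved the median of all genes by -0.26 (their 75th percentile) or -0.16 (their median). The share of called genes that were higher was 32.5% here, 13.5%, 20.1% and 47.4% with other references or background correction and 88.8% with the spike-in reference.

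Exo1, the exonuclease that resects DNA ends and cuts back mismatched strands, read -1.48, -2.01, -1.63, -4.01 and -2.38 in the 5 p53f/f HCC and -1.25, -0.66, -0.11, -0.36 and -1.44 in the 5 p53LKO HCC. The lowest p53LKO HCC lay just above the highest p53f/f HCC, so the groups did not overlap, but the gap between them was small. The log2 fold change was 1.54 ± 0.46 (SE), a 2.91-fold rise, with an adjusted p of 0.0262 and an exact permutation p of 0.00794, the smallest that 5 against 5 arrays allow. Without the tumor of mouse 3717 T1, which read lowest, the log2 fold change was 1.11 and the adjusted p 0.027. The call was lost without 3717 T2 (1.52, adjusted p = 0.0515), 3731 T2 (1.38, adjusted p = 0.0584) or 3733 T1 (1.44, adjusted p = 0.0575). It was also lost within the upper rows alone (log2 fold change 1.67, adjusted p = 0.0595), with the slide as a block (1.48, adjusted p = 0.0621), with normexp background correction (0.75, under 2-fold), without the filter on dim probes (adjusted p = 0.0551) and with the unequal-variance test of the methods (adjusted p = 0.0754). In all, it was called in 22 of 30 alternatives with a test. The probe lies at chr1:177838682-177838741 of mm9, on the plus strand. The array files name the gene at that position and give neither exon nor intron, here and for the probes below.

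Fanca, a subunit of the Fanconi anemia core complex, read -0.66, -0.99, -0.16, -3.12 and -0.95 in p53f/f HCC, against -0.10, 0.09, 0.14, 0.12 and 0.64 in p53LKO HCC. The 5 p53LKO HCC lay close together above all p53f/f HCC, and the p53f/f HCC of mouse 3717 T1 lay far below the other 4. The rise was 1.35 ± 0.46 on the log2 scale, or 2.55-fold, with an adjusted p of 0.0448 and an exact permutation p of 0.00794. Without mouse 3717 T1 it was 0.86, under 2-fold, with an adjusted p of 0.0204. It kept its call without 3681 T1 or 3716 T1, and lost it without any of the other tumors (1.24 to 1.42, adjusted p = 0.0587 to 0.0926). Fanca was called in 12 of 30 alternatives with a test. The call was also lost in the upper rows alone (1.47, adjusted p = 0.0933), with the row as a block (1.47, adjusted p = 0.0764), with the slide as a block (1.23, adjusted p = 0.106), with quantile normalization (1.47, adjusted p = 0.0683) and with normexp (0.95, under 2-fold). Both references of probes above background (1.09 and 1.19, adjusted p = 0.0796 and 0.0633), no filter on dim probes, the unequal-variance test and 1 probe per gene in the fit (adjusted p = 0.0889, 0.131 and 0.0518) lost it as well. The probe lies at chr8:125792210-125792269 of mm9, on the minus strand, and a further Fanca probe was not well above background on any HCC array. The other Fanconi genes did not pass the test, with log2 fold changes of 0.59 for Fancb of the core complex and 0.46 for Fanci, which is loaded onto DNA by it (adjusted p = 0.169 and 0.56).

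Genes that are transcribed in dividing cells were followed beside these 2 genes. Of 24 genes of replication and mitosis, all 24 had log2 fold changes above 0 in p53LKO HCC, the median was 0.95, and 5 were called higher, Mcm6 at 1.98, Mcm2 at 1.53, Mcm5 at 1.36, Mcm3 at 1.22 and Mcm4 at 1.20, subunits of the replicative helicase. Mcm7 passed the adjusted p at 0.94, under 2-fold, and the other 18 did not pass. The mean of the 24 was lowest on the array of mouse 3717 T1, at -1.35, and 0.49 to 1.19 on the other p53f/f HCC arrays, against 0.69 to 1.93 in p53LKO HCC. Mouse 3717 T1 was thus the tumor with the lowest levels of Exo1, Fanca and the proliferation genes alike. The part of cell division in the values of the repair genes was not tested. Of the cell type markers, the 8 for hepatocytes had a median of -0.59 in this comparison, 7 of them below 0, and Alb, Fah and Serpina1c were lower at an adjusted p under 0.05 (-0.60, -0.80 and -0.64). The 6 fibroblast and stellate cell markers had a median of 0.98, and Lum was called higher at 1.69 (adjusted p = 0.0327). The endothelial marker Stab2 was called lower at -1.17 (adjusted p = 0.0274), and no other marker was called. The fibroblast markers averaged -0.10 to 1.67 in p53f/f HCC and 1.06 to 3.27 in p53LKO HCC, and the hepatocyte markers 6.43 to 7.39 and 6.20 to 6.61. The medians of the biliary, T, B and NK cell, macrophage and endothelial markers were -0.20, -0.24, 0.42 and -0.18. The T, B and NK cell markers ran from -3.32 to 0.27, and Cd79a among them was lower at an adjusted p under 0.05, under 2-fold. The part of cell makeup was not tested.

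**Figure D2:**
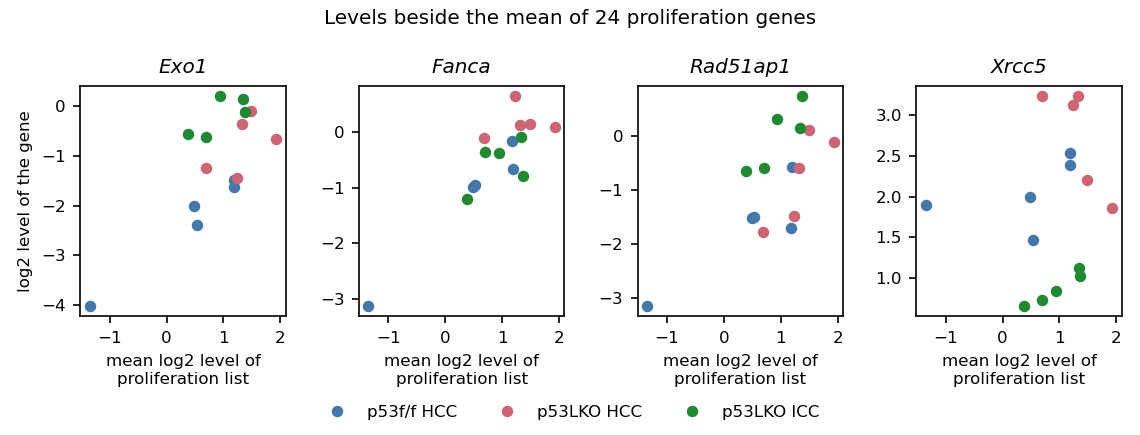
Level of Exo1, Fanca, Rad51ap1 and Xrcc5 (vertical axes, log2) against the mean log2 level of 24 proliferation genes (horizontal axes), 1 point per tumor coloured by group. The p53f/f HCC of mouse 3717 T1 lies alone at -1.35 on the horizontal axis, with the lowest levels of Exo1, Fanca and Rad51ap1, while Xrcc5 of the ICC lies below all HCC at any proliferation level.

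In the nucleotide excision pathway, which cuts bulky lesions out of 1 strand, the means of its 3 members separated the HCC groups: -0.32 to -0.05 in p53f/f HCC and 0.38 to 0.81 in p53LKO HCC. The base excision means did so too, at 0.23 to 0.91 and 0.94 to 1.54. So did the 92 further repair genes described below, at -0.34 to -0.1 and -0.03 to 0.14. The 16 further nucleotide excision genes overlapped, at 0.68 to 0.86 and 0.85 to 1.17, and 3 were higher at an adjusted p under 0.05. Lesion bypass and direct reversal genes separated the other way, at 0.33 to 0.48 and 0.01 to 0.26. The share of all genes without overlap was not counted. Ercc2, the XPD helicase of transcription factor TFIIH, read 0.84, -0.10, 0.61, 0.45 and 0.09 in p53f/f HCC, against 1.34, 1.45, 1.11, 0.93 and 1.45 in p53LKO HCC, again without overlap. Its log2 fold change was 0.87 ± 0.21, under 2-fold, with an adjusted p of 0.00933. Ercc3, the XPB helicase of the same factor, differed by 0.95 ± 0.23 (adjusted p = 0.0101), with p53LKO HCC at 0.90 to 1.76 and p53f/f HCC at -0.11 to 0.90. Both differences kept an adjusted p under 0.05 in all 30 alternatives with a test, and Ercc3 passed 2-fold with the row as a block and in the upper rows alone (1.20 in both), with the spike-in reference (1.69), and when the p53f/f HCC of mouse 3715 (1.09) or the p53LKO HCC of mouse 3976 (1.03) or 5283 (1.06) was left out. Ercc1, the partner of the Xpf nuclease, stood at 0.48 ± 0.24 (adjusted p = 0.144).

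Among the end joining genes, Lig4, the ligase that seals the break, was at -1.18 to -0.56 in p53f/f HCC and -0.56 to 0.35 in p53LKO HCC, which is a difference of 0.87 ± 0.21 on the log2 scale (adjusted p = 0.00935). Xrcc6 differed by 0.79 ± 0.25 (adjusted p = 0.0327), from 2.12 to 3.36 in p53f/f HCC to 3.25 to 3.78 in p53LKO HCC. These differences were under 2-fold. Lig4 reached 1.02 without the p53LKO HCC of mouse 3731, and with the spike-in reference both were called higher (1.61 and 1.52). Lig4 kept an adjusted p under 0.05 in 29 of 30 alternatives and Xrcc6 in 16. The dimer partner of Xrcc6, Xrcc5, read 1.47 to 2.53 in p53f/f HCC and 1.86 to 3.23 in p53LKO HCC, and its 0.67 ± 0.32 did not pass the test (adjusted p = 0.128). Xrcc4, the scaffold of Lig4, and Prkdc, the DNA-dependent protein kinase, differed by -0.09 and 0.07 (adjusted p = 0.773 and 0.852).

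Base excision and single-strand break repair held 3 of 8 genes at an adjusted p under 0.05, all higher in p53LKO HCC by less than 2-fold, where 13.8% of all genes were higher. Xrcc1, the scaffold of this pathway, read 1.17, 1.41, 1.52, 1.16 and 1.35 in p53f/f HCC, against 1.80, 2.20, 1.93, 1.67 and 1.66 in p53LKO HCC. All 5 p53LKO HCC lay above all p53f/f HCC, by 0.53 ± 0.16 on average (adjusted p = 0.0291). Parp1, which marks strand breaks with poly(ADP-ribose), differed by 0.70 ± 0.20 (adjusted p = 0.0208), and Ogg1, the glycosylase for oxidised guanine, by 0.62 ± 0.22 (adjusted p = 0.0496). Of 30 alternatives, Parp1 passed the adjusted p in 24, Xrcc1 in 18 and Ogg1 in 10, and with the row as a block none of the 3 passed (adjusted p = 0.0952, 0.117 and 0.23). Neil3, a glycosylase expressed mainly in dividing cells, had a larger difference of 1.32 ± 0.68 that did not pass (adjusted p = 0.159), its p53f/f HCC running from -6.20 to -2.25. The other 4 genes were Parp2 at 0.43, Apex1 at 0.37, Ung at 0.27 and Lig3 at -0.46 (adjusted p = 0.104 to 0.57).

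Of the break sensing and checkpoint genes, Mre11a, the nuclease of the sensor complex, passed at 0.63 ± 0.15 (adjusted p = 0.00834) and lay at -0.64 to -0.30 in p53f/f HCC and -0.06 to 0.39 in p53LKO HCC, without overlap. Its partners Rad50 and Nbn differed by 0.24 and 0.22 (adjusted p = 0.329 and 0.352). None of the kinases passed the test: Chek2 stood at 0.84 ± 0.30 (adjusted p = 0.0521) and Chek1 at -0.89 ± 0.35 (adjusted p = 0.0723), while Atm at 0.22 and Atr at -0.18 were near 0 (adjusted p = 0.56 and 0.498). Chek2 was called higher within the upper rows alone, with the row as a block, with quantile normalization, with the spike-in reference, and when either the tumor 3716 T1 or 5283 T7 was left out. Chek1 was called lower with the probes that all 10 arrays measured above background as the reference, and without the p53LKO HCC of mouse 3731. None of the genes grouped under mismatch repair passed the threshold: Msh6, which recognises single mismatches, stood at 0.51 ± 0.19 (adjusted p = 0.054), Pms2 at 0.02 and Msh3 at -0.08. Exo1, given above, was grouped with homologous recombination.

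The remaining homologous recombination genes did not pass the test in this comparison. The values were 0.91 ± 0.49 for Rad51ap1 (adjusted p = 0.176), 0.65 ± 0.28 for Rad54b (adjusted p = 0.0937; called higher with quantile normalization), and 0.34, 0.30, 0.24 and 0.19 for Xrcc3, Rad54l, Xrcc2 and Brca2. With the spike-in reference Rad51ap1, Rad54b, Rad54l and Xrcc3 were called higher. Bard1, the partner of Brca1, was at -0.05 and the Blm helicase at -0.24. For Bard1 a dimmer probe differed by 1.41 ± 0.51 (adjusted p = 0.0557), so its probes disagreed. Dimmer probes also had the opposite sign for Atm (-0.45 against 0.22) and Rad50 (-0.25 against 0.24), and for Pms2 a dimmer probe stood at 0.80 against 0.02 (adjusted p = 0.0506), none past the threshold.

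**Figure D3:**
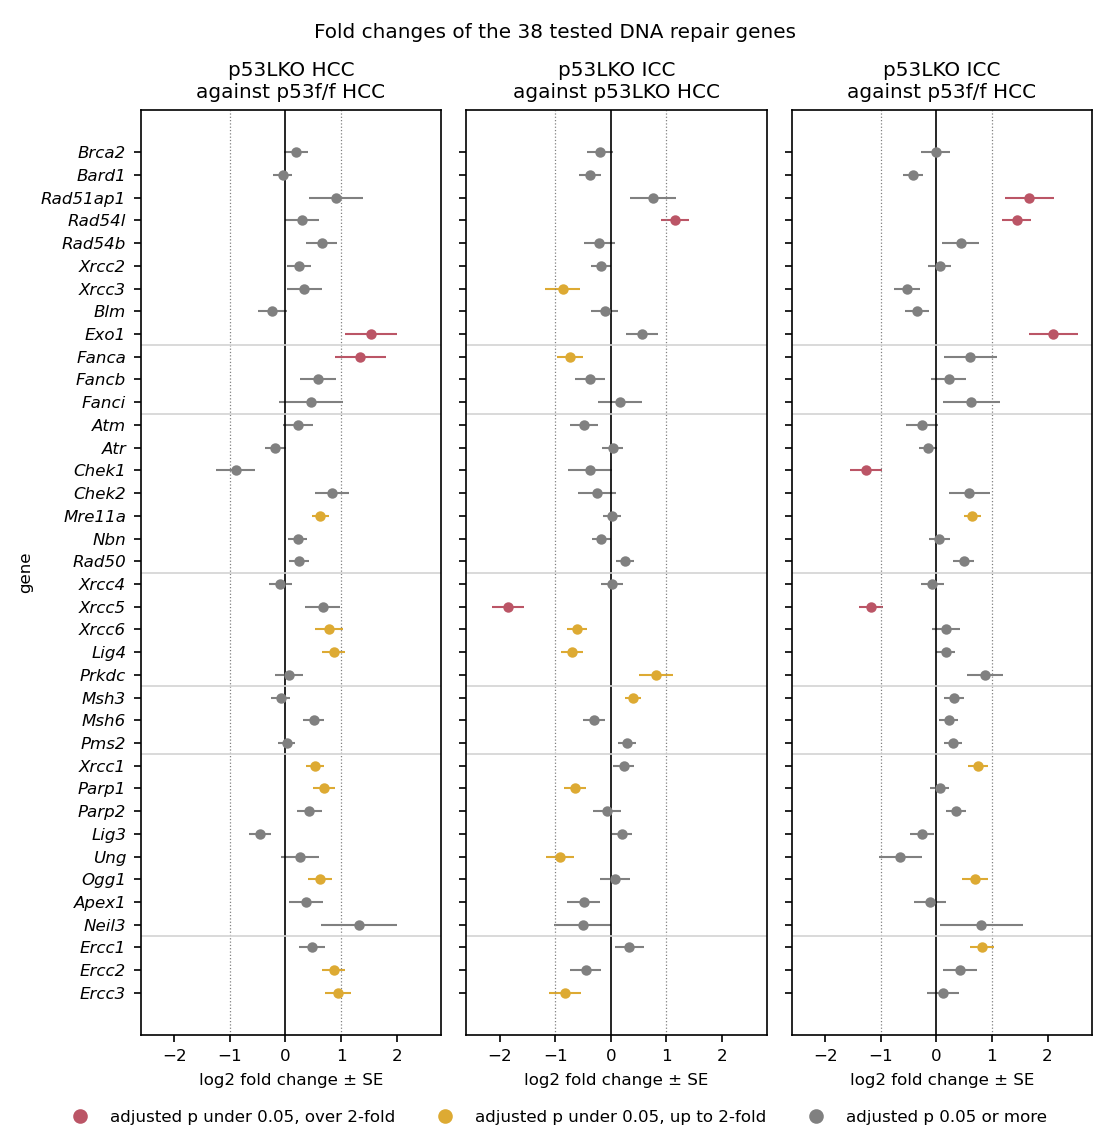
Log2 fold change with its standard error for the 38 tested genes (rows, grouped by repair pathway) in the 3 comparisons (panels), coloured by limma's adjusted p and the 2-fold threshold, which dotted lines mark. On this scaling, in p53LKO HCC against p53f/f HCC 31 of 38 points lie above 0 (24 to 37 on others), in ICC against p53LKO HCC 15 of 38 (15 to 23 on others).

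The second comparison set ICC against HCC within p53LKO mice. The list's median was -0.19, with 15 genes above 0 and 23 below, beside -0.17 for all 16962 genes tested. Rad54l was called higher in ICC and Xrcc5 lower. Of all genes, 13.2% were called higher and 15.2% lower. Without the fold threshold 3 members were higher and 8 lower at an adjusted p under 0.05, against 18.5% and 29.1% of all genes. With the row as a block and within the lower rows alone, 1 was higher and 3 lower, as without the filter on dim probes, and with the spike-in reference 1 was higher and 2 lower. Without the ICC of mouse 3977 there were 2 and 5. Leaving out any other tumor left 1 to 3 higher and 6 to 8 lower. The sign of the list's median turned with the reference, to 0.17 when the probes that all 10 arrays measured above background set the scale, which moved the median of all genes by 0.37, put 23 members above 0 and 15 below, and gave 9 members higher and 1 lower at an adjusted p under 0.05. The share of called genes that were higher was 46.4% here, 69.8% with that reference and 59.6% with the median of the same probes. Rad54l and Xrcc5 kept their calls under both.

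Xrcc5, which with Xrcc6 clamps the broken end, had the largest difference of the 38 genes in this comparison. It read 1.12, 0.84, 0.66, 0.73 and 1.03 in the 5 ICC, 3.23, 1.86, 2.21, 3.23 and 3.13 in the 5 p53LKO HCC, and 2.53, 1.99, 2.39, 1.90 and 1.47 in the 5 p53f/f HCC. Every ICC lay below every HCC of either genotype. Against p53LKO HCC it fell by 1.85 on the log2 scale (SE 0.29), or 3.61-fold, with an adjusted p of 0.000666 and an exact permutation p of 0.00794. The call held in all 29 alternatives with a test, at log2 fold changes of -2.07 to -1.49. Within the lower rows alone it was -1.67 (adjusted p = 0.0147), and within the 2 slides it was -1.42 (where only 1 ICC lies) and -2.04. With the mouse as a block, which pairs the 4 mice that gave both tumors, it was -1.72 (adjusted p = 0.0227). No mm9 position is listed for this probe. Its partner in the Ku dimer, Xrcc6, was lower by a smaller amount, at -0.61 ± 0.18 (adjusted p = 0.0207), with ICC at 2.50 to 3.17 and p53LKO HCC at 3.25 to 3.78.

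Rad54l, a motor protein of strand invasion, read -1.41, -1.02, -1.82, -1.5 and -1.26 in ICC and -3.05, -2.21, -2.20, -2.16 and -3.15 in p53LKO HCC. In p53f/f HCC it read -2.68, -3.19, -2.11, -3.49 and -2.79. All ICC lay above all HCC, and the HCC groups overlapped. The rise over p53LKO HCC was 1.15 ± 0.25 on the log2 scale, or 2.22-fold (adjusted p = 0.00451, exact permutation p = 0.00794). It was called in 26 of 28 alternatives with a test and passed the adjusted p in all 28. The probe was not well above background on the 2 p53LKO HCC arrays of the lower row, so no fold is given within that row. With the mouse as a block it was 1.03 (adjusted p = 0.0192). The probe lies at chr4:115769618-115769677 of mm9, on the minus strand.

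**Figure D4:**
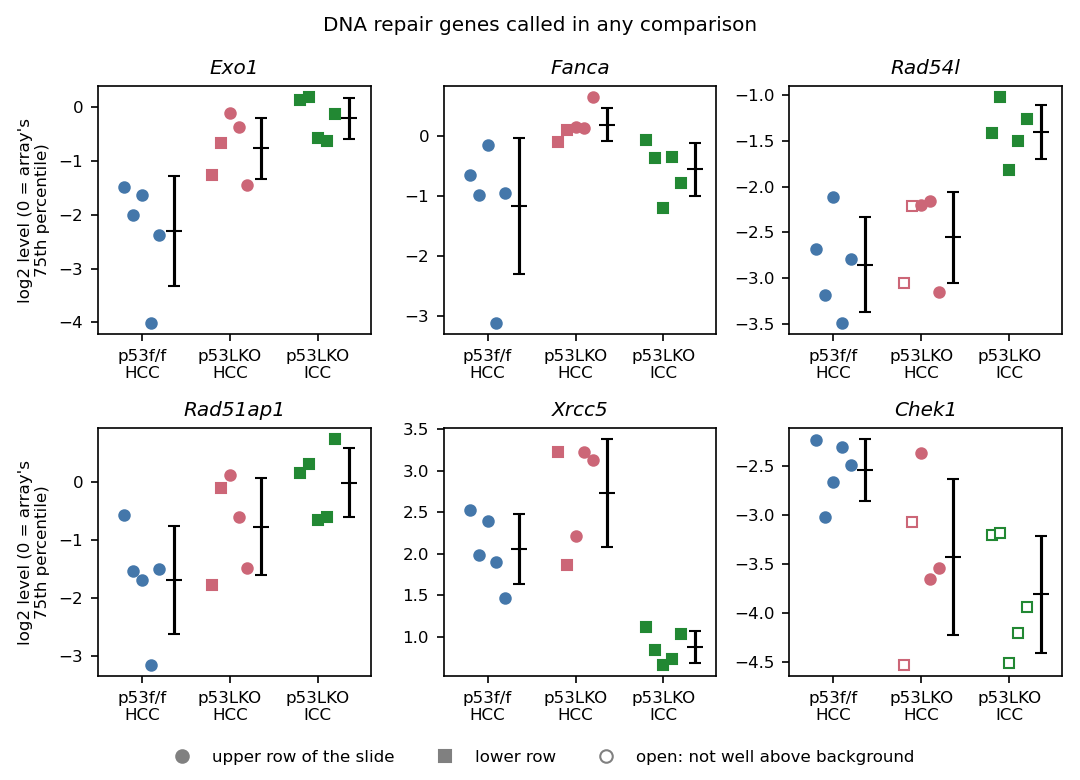
Log2 level on each array of the 6 genes called in any comparison, with the mean ± SD (n = 5) in black beside each group. Circles are arrays of upper rows, squares of lower rows, and open symbols are not well above background. Xrcc5 is lower and Rad54l higher in all ICC than in any HCC, and Chek1 is open in all 5 ICC.

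The other end joining genes of this comparison were under 2-fold. Lig4 was lower in ICC, at -0.70 ± 0.20 (adjusted p = 0.0158), and Prkdc higher, at 0.81 ± 0.30 (adjusted p = 0.0478), with ICC at -1.34 to 0.07 and p53LKO HCC at -1.78 to -1.0. Prkdc passed the adjusted p in 14 of 29 alternatives and was called higher with both references of probes above background on all arrays (1.17 and 1.01). Xrcc4 was at 0.02. Of the 5 members of this pathway, 4 thus had an adjusted p under 0.05, 3 lower and 1 higher, beside 29.1% and 18.5% of all genes. Xrcc5, Xrcc6 and Prkdc form 1 enzyme on the broken end, and their levels differed in opposite directions. With the mouse as a block, 2 members were higher and 1 lower at an adjusted p under 0.05, so Xrcc6 (adjusted p = 0.0833) and Lig4 (adjusted p = 0.136) no longer passed.

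Xrcc3, which acts in homologous recombination, was at -0.87 ± 0.31 (adjusted p = 0.0415), and since no ICC array measured it above background it was at least 1.61-fold lower in ICC. It passed the adjusted p in 9 of 26 alternatives, and was called lower with quantile normalization (-1.17) and without the p53LKO HCC of mouse 5283 or 3975 or the ICC of mouse 3731 (-1.07 to -1.0). Fanca, Parp1, Ercc3 and Ung were lower by less than 2-fold, at -0.74, -0.64, -0.83 and -0.92 (adjusted p = 0.0235, 0.0214, 0.0368 and 0.0129). Ung, which removes uracil from DNA, read 5.29, 5.51, 5.48, 5.29 and 6.56 in ICC and 6.28 to 6.76 in p53LKO HCC, so that 1 ICC, of mouse 5283, lay among the HCC. Without that tumor Ung and Ercc3 were called lower (-1.15 and -1.07, adjusted p = 0.000514 and 0.00354). With the mouse as a block none of these 5 passed (adjusted p = 0.0592 to 0.246). Fanca, Parp1 and Ercc3 were among the genes higher in p53LKO HCC than in p53f/f HCC above, and the 2 comparisons share the 5 p53LKO HCC arrays.

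Msh3, which recognises insertion loops, was the mismatch repair gene with the smallest adjusted p. It read 1.13, 1.08, 0.69, 0.95 and 0.99 in ICC, 0.66, 0.63, 0.60, 0.62 and 0.33 in p53LKO HCC, and 0.88, 0.37, 0.45, 0.50 and 1.05 in p53f/f HCC. The ICC lay above the p53LKO HCC and overlapped the p53f/f HCC. The log2 fold change over p53LKO HCC was 0.40 ± 0.15 (adjusted p = 0.0467), and Msh3 passed the adjusted p in 13 of 29 alternatives. Its dimmer probes were not well above background on any ICC array. The other 27 tested members did not pass. Their log2 fold changes ran from -0.51 for Neil3 to 0.76 for Rad51ap1, which was called higher with the 75th percentile of probes above background on all arrays. They included -0.48 for Atm (0.08 for its dimmer probe), -0.25 for Chek2, -0.20 for Brca2 and 0.02 for Mre11a.

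Cell type markers moved with this comparison. Of 8 hepatocyte markers 5 were called lower in ICC with a median of -1.70, and of 7 biliary markers 4 were called higher with a median of 2.70. The largest differences were in Epcam, at least 93.9-fold higher in ICC because no p53LKO HCC array measured it above background, and in Spp1, Krt19, Apoa1 and Cd4, at 4.73, 4.67, -2.76 and -2.76. The 6 fibroblast and stellate cell markers averaged 1.06 to 3.27 in p53LKO HCC and 3.16 to 4.15 in ICC. The 24 proliferation genes had a median of -0.33, and 1 of them was called, Rrm2 at -1.78. The medians of the T, B and NK cell, macrophage and endothelial markers were 0.24, 0.15 and -0.86, with Cd3g and Ms4a1 among those called higher. The part of cell makeup in the values of the repair genes was not tested.

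**Figure D5:**
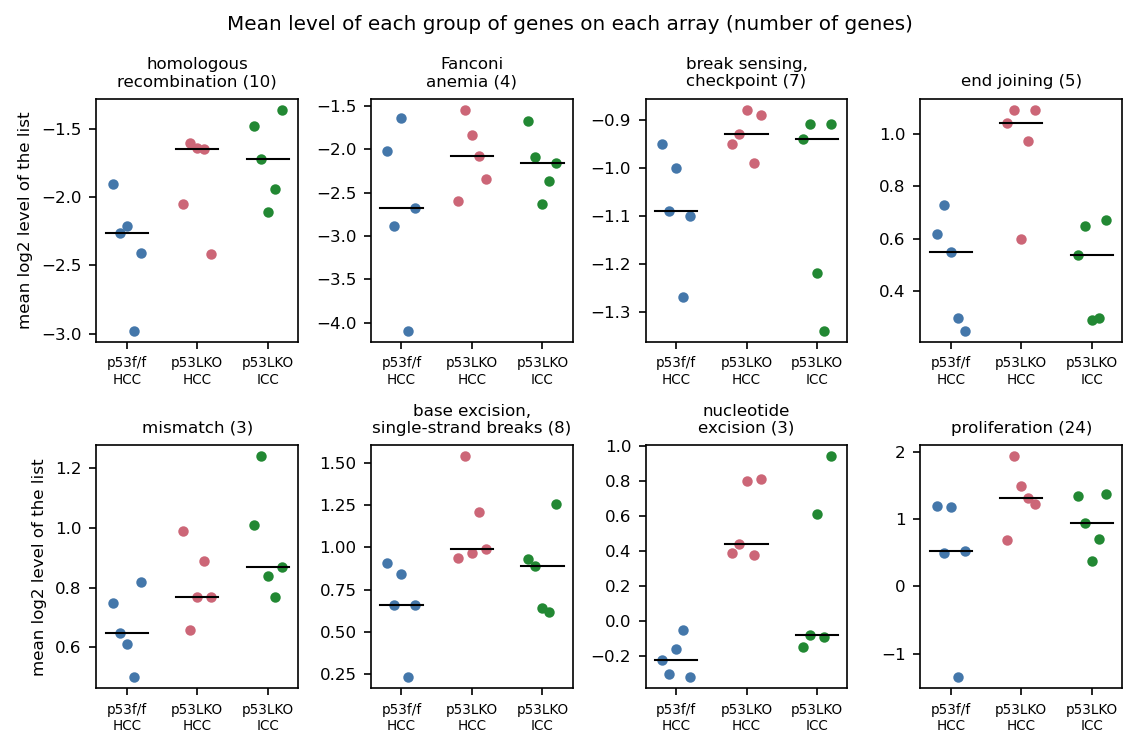
Mean log2 level per array of the members of each repair pathway and of the 24 proliferation genes (panels, number of genes in brackets), 1 point per tumor, with the median of each group as a line. The nucleotide excision genes lie at -0.32 to -0.05 in p53f/f HCC and 0.38 to 0.81 in p53LKO HCC, and the ICC span both ranges. The base excision genes lie at 0.23 to 0.91 in p53f/f HCC, 0.94 to 1.54 in p53LKO HCC and 0.62 to 1.26 in ICC.

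The third comparison, ICC of p53LKO mice against HCC of p53f/f mice, differs in genotype and tumor type at once, and since the p53f/f HCC filled only upper rows and the ICC only lower rows, the row and the group cannot be told apart. It shares the p53f/f HCC arrays with the first comparison and the ICC arrays with the second. The median of the 38 tested genes was 0.22, with 26 above 0 and 12 below, against -0.17 over all 17778 genes. Exo1, Rad51ap1 and Rad54l were called higher in ICC, and Chek1 and Xrcc5 lower, where 10.8% of all genes were called higher and 11.9% lower. Without the fold threshold, 7 members were higher and 2 lower, against 16.2% and 20.7% of all genes, and with the slide as a block 2 and 1. With the spike-in reference, which moved the median of all genes by 0.75, 16 members were called higher and 0 lower. Of the 17778 genes, 4867 were then called higher and 544 lower, and the share of called genes that were higher went from 47.6% to 89.9%. Cell type markers moved with this comparison too. Of the hepatocyte markers 6 of 8 were called lower (median -2.06), of the biliary markers 4 of 7 higher (2.48), and of the fibroblast and stellate cell markers 4 of 6 higher (2.97). Of the 24 proliferation genes Mcm3, Mcm4, Mcm5 and Mcm6 were called higher and the median was 0.55. The largest marker differences were in Epcam, Krt19, Spp1, Lum and Col1a1, at 7.2, 4.47, 4.12, 4.06 and 4.0, with Epcam well above background on 1 of 5 p53f/f HCC arrays. The T, B and NK cell, macrophage and endothelial markers had medians of -0.57, 0.47 and -0.80, with Cd3g, Adgre1 and Cd68 called higher (2.11, 1.06 and 1.0) and Cd4, Stab2 and Lyve1 lower (-2.53, -2.03 and -1.81). The part of these in the values of the repair genes was not tested.

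Exo1 read 0.13, 0.19, -0.57, -0.63 and -0.13 in ICC, all above the 5 p53f/f HCC given above. Its rise of 2.10 ± 0.44 on the log2 scale, or 4.28-fold, had an adjusted p of 0.00484 and was called in all 27 alternatives with a test. Against p53LKO HCC the ICC stood at 0.56 ± 0.29 (adjusted p = 0.136), which did not pass the test. Rad51ap1, which assists strand invasion, read 0.15, 0.31, -0.66, -0.60 and 0.73 in ICC, -1.78, -0.11, 0.11, -0.60 and -1.49 in p53LKO HCC, and -0.57, -1.53, -1.70, -3.15 and -1.5 in p53f/f HCC. The ICC and the p53f/f HCC overlapped by 1 tumor, that of mouse 3681, and the p53LKO HCC spread across both. Its rise of 1.67 ± 0.44 over p53f/f HCC, or 3.19-fold, had an adjusted p of 0.0149 (exact permutation p = 0.0238) and lost the call with the slide as a block (adjusted p = 0.0878) and with the Mann-Whitney test of the methods (adjusted p = 0.0827). Its probe lies at chr6:126873482-126873541 of mm9, on the minus strand.

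Rad54l was higher by 1.45 ± 0.26 (2.73-fold, adjusted p = 0.00251), under 2-fold with normexp (0.51), and Xrcc5 fell by 1.18 on the log2 scale (SE 0.22; 2.27-fold, adjusted p = 0.00272). With the slide as a block Xrcc5 was at -0.87 (adjusted p = 0.0418), under 2-fold, and with the spike-in reference at -0.43 (adjusted p = 0.282). Chek1, the kinase that holds cells at the replication checkpoint, read -2.23, -3.02, -2.66, -2.30 and -2.49 in the p53f/f HCC, -4.53, -3.07, -2.36, -3.65 and -3.54 in p53LKO HCC, and -3.20, -3.18, -4.51, -4.21 and -3.94 in ICC. It was well above background on 5, 3 and 0 arrays of these groups, so in ICC it was at least 1.13-fold lower than in p53f/f HCC, a bound close to no change (limma's adjusted p = 0.00753). The call was lost with normexp background correction, the slide as a block and the spike-in reference (adjusted p = 0.0622, 0.0844 and 0.255), and was under 2-fold with quantile normalization. The probe lies at chr9:36516068-36516127 of mm9, on the minus strand.

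A further 4 members were higher in ICC than in p53f/f HCC by less than 2-fold. They were Ercc1 at 0.82 ± 0.21 (adjusted p = 0.0123), Xrcc1 at 0.75 ± 0.18 (adjusted p = 0.0106), Ogg1 at 0.70 ± 0.23 (adjusted p = 0.0397) and Mre11a at 0.65 ± 0.15 (adjusted p = 0.00863). Xrcc1 read 1.77, 2.03, 2.22, 1.84 and 2.54 in ICC, above all p53f/f HCC. Against p53LKO HCC the ICC differed by 0.23 for Xrcc1 and 0.02 for Mre11a (adjusted p = 0.351 and 0.932). Ercc2 did not follow, since its ICC read 0.08, 0.61, 1.5, 0.42 and 1.42 and spanned both HCC groups (0.43 ± 0.31, adjusted p = 0.299). The other 29 tested members did not pass, among them Prkdc at 0.88 (adjusted p = 0.0552; called higher without the p53f/f HCC of mouse 3715 or the ICC of mouse 3976) and Rad50 at 0.49 (adjusted p = 0.0654), while the dimmer Msh3 probes, not well above background on any ICC array, read lower in ICC against 0.32 for the brightest. For Bard1 the dimmer probe stood at 1.29 (adjusted p = 0.0693) against -0.42. Brca1 was called higher without the filter on dim probes, although no array measured it above background.

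The wider repair machinery was followed through 93 further genes of the same pathways, 92 of them on the array. In p53LKO HCC against p53f/f HCC 90 were tested with a median of 0.24, and 5 were called higher and 2 lower, where 5.19% and 10.8% of all genes were. Mgmt, which strips alkyl groups from guanine, showed the largest difference of this list: it averaged 2.50 ± 0.19 (SD, n = 5) in p53f/f HCC, 0.50 ± 0.81 in p53LKO HCC and 0.82 ± 0.18 in ICC. It fell by 2.01 in p53LKO HCC (SE 0.34, adjusted p = 0.0014) and by 1.68 in ICC (SE 0.16, adjusted p = 7.71e-05) on the log2 scale. Rbbp8 (CtIP), the partner of the Mre11a complex in end resection, went the other way, averaging 1.23 ± 0.57, 2.69 ± 0.42 and 2.70 ± 0.37, a rise of 1.46 and 1.47 over p53f/f HCC (adjusted p = 0.00391 and 0.00369). Also called in the first comparison were Wrn at 1.19, Neil2 at 1.06, Gtf2h4 at 1.01 and Apex2 at -1.02.

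In ICC against p53LKO HCC 89 of these genes were tested, the median was -0.07, and 0 were called higher and 3 lower by limma, where 13.2% and 15.2% of all genes were. At an adjusted p under 0.05 without the fold threshold 7 were higher and 21 lower, against 18.5% and 29.1% of all genes. Nhej1 and Neil2 were among those called lower. Nhej1 (XLF), which works with Xrcc4 and Lig4, fell by 1.42 (adjusted p = 0.000247), from 1.23 ± 0.34 to -0.20 ± 0.08. The glycosylase Neil2 stood at -1.10 (adjusted p = 0.0146). Of the 16 further nucleotide excision genes 7 were lower and 1 higher at that threshold. In ICC against p53f/f HCC 88 were tested with a median of 0.09. Palb2 (1.52), Rbbp8 (1.47) and Aplf (1.21) were called higher and Mgmt (-1.68) and Brip1 lower, where 10.8% and 11.9% of all genes were. Palb2 was well above background on 2 of 5 ICC arrays and 3 of 5 p53f/f HCC arrays, and Brip1 on no ICC array, so that it has no fold here.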

How the data were processed

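Total RNA of 15 tumors was measured on 1-colour Agilent arrays. The authors deposited, per the file headers, Feature Extraction 10.7.3.1 output in which the processed signal is a background-corrected intensity per spot. Their deposited value table holds log2 values centred on each probe's median over 10 arrays (correlation 1 with the scanner values treated so, column medians -0.327 to 0.345) and served as an alternative in the first comparison.

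Here the log2 processed signal was averaged over unflagged spots of a probe, and the array's 75th percentile over non-control probes was subtracted. Probes that at least 3 arrays of 1 group measured well above background were tested with limma 3.58.1 in R 4.3.3 on the 10 arrays of a comparison, with Benjamini-Hochberg adjustment over all tested probes (36087, 32670 and 35704). Exact permutation tests were 2-sided. A called or passing gene not above background in a whole group is given as at least N-fold lower or higher where N exceeds 1. This bound sets the mean of the brighter group against a floor. Per array, the floor is the higher of the dim probe's own signal and the lowest signal among probes well above background. A log2 value printed for such a gene is the fit's reading, not a measured level. Figures were drawn with Python 3.11.15 and matplotlib 3.10.9.

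The members and gene lists were chosen with earlier results of these data known. Every member is accounted for, array values are given for called members and for the member with the smallest adjusted p of a pathway without calls, and of the other repair genes and the markers the 5 called with the largest change per comparison are the rule, apart from an item that is not reported here. On simulated data with changes of 1.5 and 3 on the log2 scale, 66% and 92% were recovered in the first comparison, 56% and 86% in the second and 48% and 92% in the third. False calls numbered 6, 7 and 9. The simulation drew normal noise and changed far fewer probes than were called in the data, so recovery in the data may differ. Precision is limited by the 5 arrays per group. Tumors of 1 mouse are not separate animals, so p-values measure the spread between tumors. Deviations from group means correlated at -0.143 to 0.0654 between the HCC and ICC of the same mouse (4 pairs, paired by the mouse in the labels) and at -0.262 to 0.283 in other pairs. Alternatives covered background correction, scaling, the filter, slide, row and mouse, tests, thresholds, probe choice and leaving out each tumor.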

Additional observations from a re-analysis of the deposited data

Results flagged for a closer look

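In 8 of 120 sets of 5 tumors, 1 tumor of a group lay far from the other 4 by Dixon's test, where chance gives about 6. In ICC, the tumor of mouse 5283 T20 accounted for 4 of them. It read -3.01 for Brca1 (the others -4.85 to -4.35, none well above background), -1.53 for Chek2 (the others -3.32 to -2.88, not well above background), 6.56 for Ung (the others 5.29 to 5.51) and 3.09 for Apex1 (the others 1.87 to 2.22). The ICC of mouse 3733 T3 read -0.36 for Pms2 (the others -0.93 to -0.86).

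Among the HCC, the p53f/f tumor of mouse 3717 T1 read -3.12 for Fanca (the others -0.99 to -0.16) and -6.20 for Neil3, not well above background there (the others -3.26 to -2.25). The p53LKO HCC of mouse 3975 T4 read 0.33 for Msh3 (the others 0.60 to 0.66).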

How the results depend on the processing

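Of the counts and medians under an alternative, 278 stayed within the spread or 1.5 times of the reported value and 72 moved. The median of the members in ICC against p53LKO HCC turned from -0.19 to 0.17 and 0.01 with the 2 references of probes above background on all arrays. The cause was not tested unless named. In p53LKO HCC against p53f/f HCC (2 members higher, 0 lower, 7 other repair genes, median 0.45), 0 members were called higher with normexp, no filter on dim probes, the slide as a block or the Welch test of the methods, and 1 with 1 probe per gene in the fit. With normexp 3 other genes were called and the median was 0.22. With the 75th percentile of probes well above background on all arrays, 1 was higher, 1 lower and the median 0.19, and with their median 1 higher and 1 lower. With spike-in scaling 23 were higher, where 6224 of all 17848 genes were. That scaling also gave 45 other genes called and a median of 1.18. Without a fold threshold 10 were higher and 24 others called, and over 1.5-fold 9 and 23. The other genes numbered 4 with the row as a block, in the upper row alone and with the mean of mouse 3717. Leaving out 1 tumor gave 0 to 3 higher, 0 to 1 lower, 3 to 7 others and medians of 0.37 to 0.50. In ICC against p53LKO HCC (1 higher, 1 lower, 3 others, median -0.19), 0 were higher with normexp, quantile normalization (2 lower) or probes measured on every array compared. The 75th percentile of probes above background on all arrays gave 3 higher, 10 others and a median of 0.17, and their median gave 2 higher and 5 others. Without a fold threshold there were 3 higher, 8 lower and 28 others, and over 1.5-fold 2, 8 and 24. The others numbered 7 with the row as a block and 6 in the lower row alone. Leaving out 1 tumor gave 1 higher, 1 to 3 lower, 1 to 7 others and medians of -0.27 to -0.10. The 3 lower came without the ICC of mouse 5283. With the mouse as replicate block the counts were 1 higher, 1 lower and 2 others, with a median of -0.17. The pairing kept Rad54l and Xrcc5 as the called members, and the members lower at an adjusted p under 0.05 went from 8 to 1. In ICC against p53f/f HCC (3 higher, 2 lower, 5 others, median 0.22), 1 was lower with normexp (2 others), quantile normalization and probes measured on every array compared (3 others), and 3 others were called with every array of at least 1 group. With the slide as a block 0 were lower. Spike-in scaling gave 16 higher, where 4867 of all 17778 genes were, 0 lower, 33 others and a median of 0.96. Without a fold threshold there were 7 higher and 18 others, and over 1.5-fold 7 and 16. Leaving out 1 tumor gave 3 to 4 higher, 2 lower, 4 to 7 others and medians of 0.13 to 0.32. Lower-row arrays, with 37.0% to 47.0% of probes above background, limit dim genes such as Chek1 and Xrcc3 to bounds.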
